A study of Mus musculus with 8 samples.

Results

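Olig1, Olig2 and Sox10 are described here through the open chromatin around them in the mouse hippocampus. The members are the regions of the deposited count table that overlap a window of 70 kb on chromosome 16 of mm9, which holds Olig1 and Olig2, or a window of 40 kb on chromosome 15, which holds Sox10. The first window begins 11.8 kb before its first region and ends 13.977 kb after its second, and the Sox10 window extends 23.4 kb before and 15.5 kb after its region. They are 3 of 11304 regions, 2 in the first window and 1 in the second. The 8 lists of peaks, 1 per library, added 160 listed peaks in the Olig window and 168 in the Sox10 window, out of 5729248 in all. The assay was Sono-seq, in which crosslinked chromatin is sheared by sound and sequenced with no antibody, so that reads pile up where chromatin is open. All 8 mice were male C57BL/6J of 2 months, handled for 3 days. The 4 conditioned mice received contextual fear conditioning, with a single foot shock of 2 s and 1.5 mA in the chamber, and their hippocampus was taken 30 min later. The 4 control mice were handled, not conditioned, and dissected at the same time of day. No transgene or deletion is named for either group.

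OLIG1 and OLIG2 are basic helix-loop-helix transcription factors of the oligodendrocyte lineage. OLIG2 is needed to specify oligodendrocyte precursors, and in the embryonic spinal cord also motor neurons, while OLIG1 contributes to maturation and to repair of myelin. SOX10, a high-mobility-group transcription factor of oligodendrocytes and of the neural crest, acts downstream of OLIG2 and switches on myelin genes. In the hippocampus these genes are used as markers of a lineage that is a minority among neurons and astrocytes. The libraries hold DNA of all cells of the tissue, so fewer cells with an open locus and less opening per cell cannot be told apart. The assay reads DNA, and RNA or protein of the 3 genes was not measured.

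The table of gene positions at hand is for GRCm38.p6 and not for mm9, so no region was assigned to a promoter, exon or intron. In the gene order of GRCm38.p6, Olig2 (gene ID 50913) comes before Olig1 (gene ID 50914), with no protein-coding gene between them. The first region of the Olig window is therefore called the Olig2-side region and the second the Olig1-side region, which is a name by order only. Sox10 (gene ID 20665) lies there between Polr2f, a subunit of RNA polymerases, and Pick1, a PDZ-domain protein of synapses. Whether parts of these neighbours fall inside the Sox10 window was not determined.

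RefSeq's promoter table matched Olig2 among the 3 genes. The 250 bases before the annotated start of Olig2 are shown for their base composition, since CG-rich starts of genes are a textbook place of open chromatin. They lie on the plus strand at chr16:91225300-91225549 of GRCm38.p6, a position that cannot be set against the mm9 positions of the regions. Capitals mark every CG.
Olig2 promoter: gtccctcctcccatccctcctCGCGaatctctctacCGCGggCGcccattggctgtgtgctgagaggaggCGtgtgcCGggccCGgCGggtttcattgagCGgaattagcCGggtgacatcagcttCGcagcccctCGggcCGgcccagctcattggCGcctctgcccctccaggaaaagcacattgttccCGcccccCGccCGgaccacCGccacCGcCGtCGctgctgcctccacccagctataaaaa
The stretch held 22 CG dinucleotides and 66.8% G or C, against medians of 6 and 52.4% over all 32851 promoters of the table, and 85.2% of these promoters had fewer CG. The motif TATAAA, the core of the TATA box, occurred 1 time, and 12.4% of promoters hold it on either strand. Its first base was at -8 from the annotated start, and whether it serves as a TATA box was not tested. CCAAT, the CCAAT box, occurred 2 times, both on the reverse strand, and 33.8% of promoters hold it. CAGCTG, an E-box of the kind that basic helix-loop-helix factors bind, was found 0 times (13.0% of promoters hold it). ACAAAG, 1 form of the core recognised by SOX factors, was found 0 times as well (16.5% of promoters). Other forms of that core were not searched for, so the stretch may still hold a SOX core. Each motif was searched on both strands, and 0 pairs of matches overlapped.

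By mean count over the libraries, all 3 regions were in the upper part of the deposited list. The Olig2-side region spans 942 bp on chromosome 16 (91226822 to 91227764), the Olig1-side region 1236 bp (91269787 to 91271023), and the Sox10 region 1100 bp on chromosome 15 (78993369 to 78994469). The gap between the 2 Olig regions was 42023 bp. Mean counts over the 8 libraries exceeded those of 76.1% of all regions on the Olig2 side, 80.2% on the Olig1 side and 72.9% at Sox10. These means weigh deep libraries most and are not set against length. Within single libraries the percentile ran from 18.3 (control replicate 1) to 95.3 (control replicate 4) on the Olig2 side. It ran from 67.1 to 89.9 on the Olig1 side, and from 18.3 (control replicate 1) to 82.8 (control replicate 2) at Sox10. The authors' mean z of a region, a score whose scaling is not stated, was 68.2, 65.3 and 79.7 in that order, with a median of 58.9 over all regions. In these 3 regions it equals the mean over listed peaks with z of at least 30, so weaker libraries are left out. The highest z averaged over all 4 libraries of a group was 48.6 (control) and 62.1 (conditioned) on the Olig2 side. It was 41.7 and 65.3 on the Olig1 side, and 56.7 and 87.2 at Sox10. By the authors' mean z the Sox10 region stood higher, above 90.3% of all regions, than by its counts.

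The authors also give the number of libraries that carry each region, which was 6 for the Olig2-side region, 5 for the Olig1-side region and 7 for the Sox10 region. Over the whole list 4 to 8 carriers occur, and 18.2% of regions had 7 and 4.96% had 8. Carriers coincided here with the libraries whose highest peak in the region reached z of 30. At Sox10, control replicate 1 (z = 18.0) was the library below that level. On the Olig2 side, control replicate 1 (z = 7.93) and conditioned replicate 2 (25.6) were below it. On the Olig1 side, control replicates 1 (27.1) and 3 (12.0) and conditioned replicate 2 (28.5) were below it. These 3 libraries were also the ones with the fewest strong peaks over the list as a whole, with z of at least 30 in 24.3%, 25.5% and 58.6% of all regions for control replicates 1 and 3 and conditioned replicate 2, against 74.2% to 97.7% in the others.

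Library totals over all regions ran from 36786183 to 83233550 reads. The median region had 142, 568, 115 and 372 reads in control mice 1 to 4, then 489, 277, 707 and 1069 in conditioned mice 1 to 4. Counts were scaled with edgeR's TMM factors, which set libraries level on their middle regions, and are given as CPM, the scaled count relative to library size. The factors were 0.332, 1.45, 0.509 and 1.03 in control mice 1 to 4, then 1.07, 1.19, 1.54 and 2.01 in conditioned mice 1 to 4. CPM values thus rest on a wide rescaling, most of all in control replicates 1 and 3 and conditioned replicate 4.

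**Figure D1:**
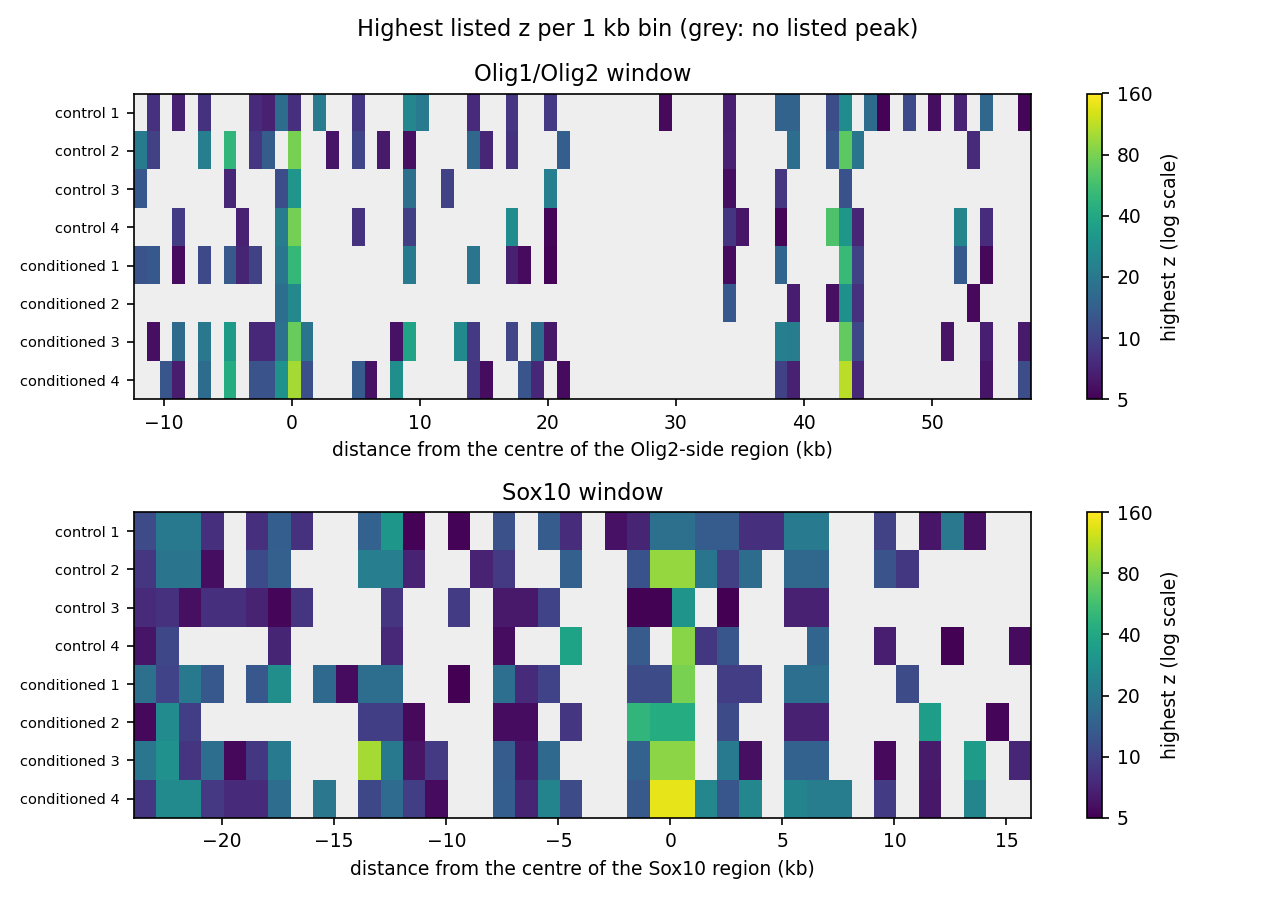
Highest listed z (colour, log scale) in each 1 kb bin of both windows, by library (rows), against the distance in kb from the centre of the Olig2-side region (top) or the Sox10 region (bottom); grey bins hold no listed peak. The Olig window has a bin with a peak in all 8 libraries at each of its 2 regions, while the Sox10 window has 8 such bins.

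The Olig2-side region was the most variable of the 3 across mice. Its counts were 66, 1370, 190 and 1409 in control mice 1 to 4, then 609, 217, 860 and 1527 in conditioned mice 1 to 4. After scaling these became 3.01, 14.8, 10.1 and 23.7 CPM in the controls and 7.52, 4.93, 7.44 and 9.12 CPM in the conditioned mice. Control replicate 4 was the highest and control replicate 1 the lowest of all 8, so the controls enclosed every conditioned value and the groups overlapped. The means were 12.9 ± 8.68 CPM in control and 7.25 ± 1.73 CPM in conditioned mice (SD, n = 4 each). The log2 fold change, conditioned over control, was -0.84 (SE 0.52; edgeR's quasi-likelihood test, Benjamini-Hochberg adjusted p = 0.731), which did not pass the test. In control replicate 1 the 66 reads have a 95% exact Poisson interval of 51.0 to 84.0, which covers counting error only. That library had 0.465 times its own median region count here, while control replicates 2, 3 and 4 had 2.41, 1.65 and 3.79 times theirs, and the conditioned libraries 0.783 to 1.43 times.

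The estimate for the Olig2-side region depended on single controls. Without control replicate 1 the log2 fold change was -1.18 (unadjusted p = 0.00983, edgeR adjusted p = 0.442), in a fit where 5.75% of all regions were lower at an unadjusted p below 0.05. Without control replicates 1 and 3 it was -1.42 (SE 0.39; unadjusted p = 0.00254, edgeR adjusted p = 0.559), where 5.03% of all regions were lower at that level. Without control replicate 4 it was -0.39. None of these adjusted p-values passed.

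The Olig1-side region had the steadiest level. Its counts were 239, 830, 361 and 712 in control mice 1 to 4, then 850, 409, 1118 and 2224 in conditioned mice 1 to 4, or 10.9, 8.99, 19.3 and 12.0 CPM and 10.5, 9.29, 9.67 and 13.3 CPM. Control replicate 3 stood above the other libraries, which lay between 8.99 and 13.3 CPM. The highest CPM was 2.14 times the lowest, a ratio smaller than in all but 6.90% of regions, where the median ratio was 4.37. Means were 12.8 ± 4.50 CPM in control and 10.7 ± 1.80 CPM in conditioned mice (SD, n = 4 each). The log2 fold change was -0.26 (SE 0.38; edgeR adjusted p = 0.921). Control replicate 3 had the most reads for its size here, and its highest z in the region was the lowest of all libraries at 12.0. In the Olig2-side region its highest z was 30.6, where it had 10.1 CPM. Without that library the log2 fold change was -0.02.

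At Sox10 the counts were 66, 1136, 95 and 629 in control mice 1 to 4, then 667, 277, 1089 and 1903 in conditioned mice 1 to 4. The scaled values were 3.01, 12.3, 5.07 and 10.6 CPM in control and 8.23, 6.29, 9.42 and 11.4 CPM in conditioned mice. Control replicates 1 and 3 were the lowest of the 8 and control replicate 2 was the highest, so here too the controls enclosed the conditioned values. Means were 7.74 ± 4.41 and 8.83 ± 2.13 CPM (SD, n = 4 each), and the log2 fold change came to 0.18 (SE 0.48; edgeR adjusted p = 0.959). The sign rested on the low controls, since the estimate was -0.09 without control replicate 1, -0.39 without control replicates 1 and 3, and 0.50 without control replicate 2.

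**Figure D2:**
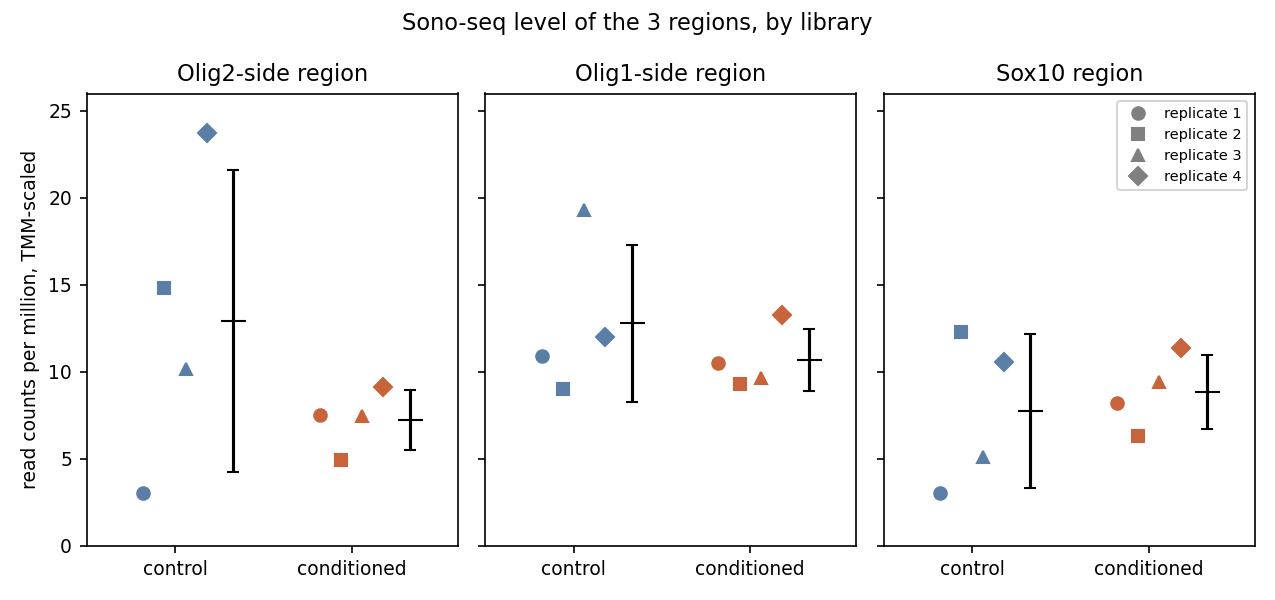
TMM-scaled read counts in CPM (vertical axis) of the 3 regions in each library, by group; symbols mark the replicate number, and bars show the mean ± SD of 4 libraries. The control libraries spread from 3.01 to 23.7 CPM in the Olig2-side region and enclose the conditioned values, which lie between 4.93 and 9.12 CPM.

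Of the 3 regions, 0 passed the adjusted threshold of 0.05, where 0.0% of all 11304 regions passed it. At an unadjusted p below 0.05 there were 0 of the 3 by edgeR, with 7.79% of all regions at that level. DESeq2's Wald test called 0 of the 3 at an adjusted p below 0.05 and 0.359% of the 11138 regions to which it gave an adjusted p, and limma called 0 of the 3 and 0.0% of all regions. Groups of CPM values that do not overlap were found in 0 of the 3 and in 2.4% of all regions. The median log2 fold change of all regions was -0.05, with a median SE of 0.50, so the SE of 0.38 to 0.52 in these regions is ordinary for the table. A p that misses the threshold does not show that the groups were alike.

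Per kb of region length, the controls had 13.7 ± 9.21 CPM per kb on the Olig2 side, 10.3 ± 3.64 on the Olig1 side and 7.04 ± 4.01 at Sox10 (SD, n = 4 each). The conditioned mice had 7.70 ± 1.84, 8.64 ± 1.46 and 8.02 ± 1.93 CPM per kb. The order by mean was thus Olig2, Olig1, Sox10 in control and Olig1, Sox10, Olig2 in conditioned mice, but each neighbour in either order lay within 1 SD of the next. Spread was smaller in the conditioned mice in each region, which was not tested. The coefficient of variation was 67.2%, 35.2% and 57.0% in control and 23.9%, 16.9% and 24.1% in conditioned mice for the Olig2-side, Olig1-side and Sox10 regions. The same direction held for the table as a whole, where its median was 52.3% in control and 34.4% in conditioned mice.

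Ratios between regions of the same library do not depend on how the library is scaled. They were computed after the values had been seen, and are a description with no test. The count of the Olig2-side region over that of the Sox10 region was 1.0, 1.21, 2.0 and 2.24 in control replicates 1 to 4. In conditioned mice 1 to 4 it was 0.913, 0.783, 0.790 and 0.802. All conditioned libraries lay below all controls, a mean difference of -0.89 on the log2 scale. The same held for 1.14% of the other regions when each was set over the Sox10 region. The gap was within counting error at its edge, since control replicate 1 had 66 reads in both regions, a ratio with a 95% exact (Clopper-Pearson) interval of 0.700 to 1.43.

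The other 2 ratios overlapped between the groups. The Olig2-side count over the Olig1-side count was 0.276, 1.65, 0.526 and 1.98 in control mice 1 to 4, then 0.716, 0.531, 0.769 and 0.687 in conditioned mice 1 to 4. The controls thus fell on both sides of the conditioned libraries, with replicates 2 and 4 above and replicates 1 and 3 below them. The Olig1-side count over the Sox10 count was 3.62, 0.731, 3.8 and 1.13 in control and 1.27, 1.48, 1.03 and 1.17 in conditioned libraries. Here control replicates 1 and 3 stood above the rest. These are the 2 libraries with the lowest median counts and the fewest strong peaks. The part of depth in these ratios was not tested.

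**Figure D3:**
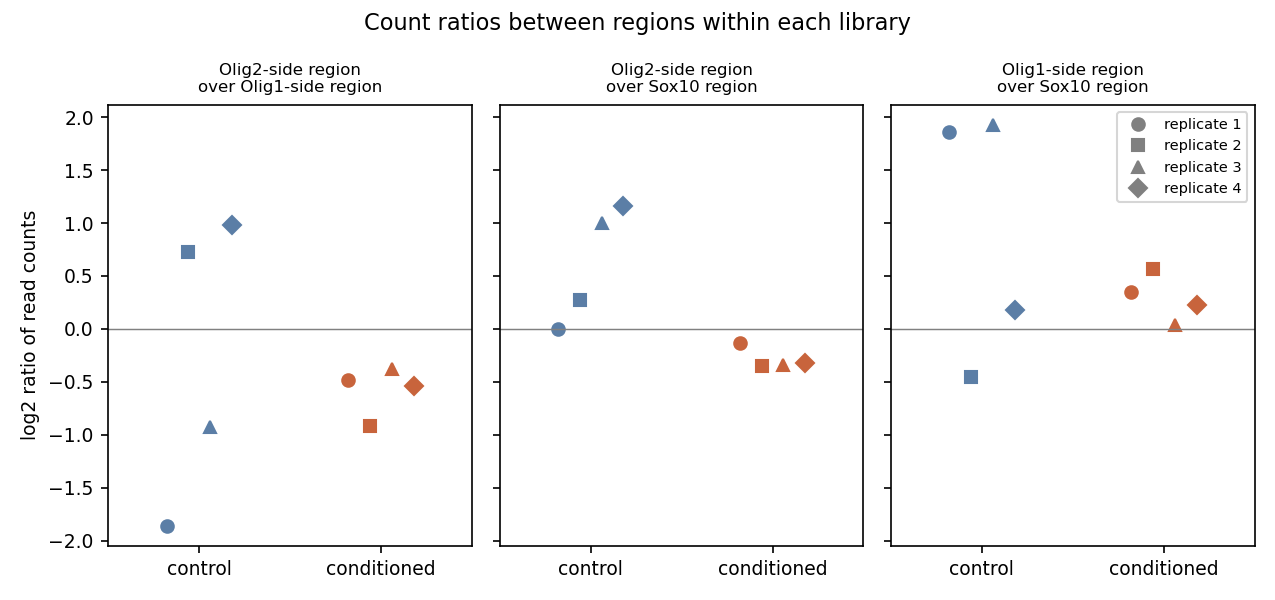
Log2 ratio of raw read counts between each pair of regions within a library (vertical axis), by group; symbols mark the replicate number and the grey line marks equal counts. For the Olig2-side over the Sox10 region, the controls lie at 0 or above and the conditioned libraries below 0; the other 2 ratios overlap.

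The 3 pairs of regions differed in how alike their variation across mice was. The mean absolute difference of centred log2 CPM over the 8 libraries was 0.65 between the 2 Olig regions, 0.49 between the Olig2-side and Sox10 regions and 0.65 between the Olig1-side and Sox10 regions. Of all other regions, 25.5% were closer to the Olig2-side region than its Olig1-side neighbour was, and 6.57% were closer to it than the Sox10 region was. To the Olig1-side region, 59.3% were closer than the Sox10 region was. Whether the regions vary together was not tested. The regions most like the summed Olig counts by this measure lay on chromosome 11 (113544681 to 113546050, difference 0.07), chromosome 3 (57650625 to 57652162, 0.10) and chromosome 17 (69788367 to 69789743, 0.12), with a median of 0.63 over all regions. For Sox10 they lay on chromosome 13 (81922166 to 81922919, 0.13), chromosome 3 (67386502 to 67386989, 0.15) and chromosome 10 (80783760 to 80784410, 0.17), against a median of 0.69.

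Strong peaks in the Olig window lay at the 2 regions and at 2 intervals off the list. Peaks with z of at least 30 from all libraries, merged across gaps of up to 500 bp, formed 4 intervals in that window, 2 of them at the listed regions. Each of the 3 listed regions is such an interval extended by the same length on both sides, and the list holds no region with fewer than 4 carriers. Recurrent strong peaks at the regions thus follow from how the list appears to have been made, and are no separate finding. On the Olig2 side the strongest peak had z of 7.93, 78.4, 30.6 and 77.4 in control mice 1 to 4, then 50.3, 25.6, 71.8 and 101 in conditioned mice 1 to 4. On the Olig1 side the values were 27.1, 66.9, 12.0 and 60.8 in control and 52.4, 28.5, 69.2 and 111 in conditioned libraries. The 27.1 of control replicate 1 was a single step at 91270852, beyond the end of the merged interval at 91270823. On that interval its highest z was 11.4. Conditioned replicate 4, the library with the highest median count, had the highest z at both. An interval that is not in the region list, on chromosome 16 at 91222422 to 91222653, carried z of 48.7 in control replicate 2, 33.1 in conditioned replicate 3 and 43.0 in conditioned replicate 4. The other 5 libraries had no listed peak on it. The remaining interval, at 91236553, had z of 38.1 in conditioned replicate 3 alone.

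In the Sox10 window the listed region was the sole strong interval found in more than 1 library, and the same limit applies. Its highest z was 18.0, 92.5, 30.1 and 86.2 in control mice 1 to 4, then 79.2, 42.7, 87.1 and 140 in conditioned mice 1 to 4. The other 6 intervals reached z of 30 in 1 library each. Of these the peak at 78980296 in conditioned replicate 3 (z = 101) exceeded that library's peak at the Sox10 region. So did the peaks at 78992819 in conditioned replicate 2 (z = 49.1) and at 78981500 in control replicate 1 (z = 31.4). Each is a single 50 bp step wide. The highest z anywhere in a window was compared between groups by exact permutation over 70 arrangements, in which the smallest two-sided p is 0.0286. In the Olig window it was 53.4 ± 28.3 in control and 66.0 ± 35.0 in conditioned libraries (SD over n = 4 mice; two-sided exact permutation p = 0.629, adjusted by Benjamini-Hochberg to 0.8 over 4 window tests). In the Sox10 window it was 60.1 ± 33.9 and 92.2 ± 38.2 (SD over n = 4 mice; two-sided exact permutation p = 0.2, adjusted by Benjamini-Hochberg to 0.4).

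Those z scores moved with the library. Each was divided by the median of the highest z over the regions with a listed peak in that library. In the Olig window this gave 1.51 ± 0.207 in control and 1.07 ± 0.195 in conditioned libraries (SD over n = 4 mice). The direction thus turned (two-sided exact permutation p = 0.0571). In the Sox10 window the scaled values were 1.67 ± 0.245 and 1.55 ± 0.0822 (SD over n = 4 mice; two-sided exact permutation p = 0.4), again with the direction turned.

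The 2 windows differed in how much of them was covered by listed peaks. Listed peaks covered 3.93%, 4.29%, 2.14% and 2.64% of the Olig window in control mice 1 to 4, then 4.86%, 2.43%, 6.29% and 5.71% in conditioned mice 1 to 4. In the Sox10 window they covered 25.5%, 17.2%, 14.8% and 4.25% in control and 15.0%, 11.8%, 20.4% and 19.5% in conditioned libraries. Set against consecutive autosomal tiles of the same length, the Olig window exceeded 37.0% to 74.1% of tiles, while the Sox10 window exceeded 94.4% to 99.0% of tiles in 7 libraries and 78.8% in control replicate 4. The Sox10 window was thus densely covered in all libraries except control replicate 4, and the Olig window was near the middle.

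**Figure D4:**
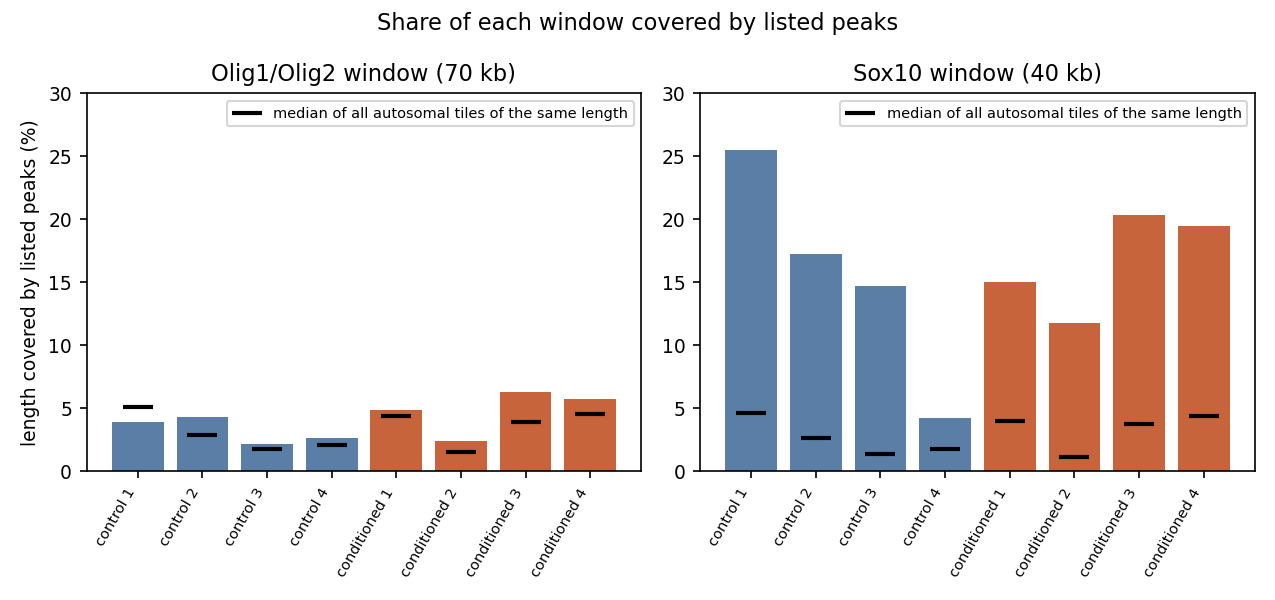
Percentage of the Olig1/Olig2 window (left) and the Sox10 window (right) covered by listed peaks in each library; bars are single libraries coloured by group, and black lines mark the median of all autosomal tiles of the same length in that library. Bars of the Sox10 window reach 25.5%, and that of control replicate 4 is 4.25%.

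The peaks of the Sox10 window were wider, with a median z per library of 7.25 to 14.3. In the Sox10 window 51.2% of listed peaks were a single 50 bp step, against 80.0% in the Olig window and 75.1% to 81.3% in the whole lists. Cut into 1 kb bins, the Sox10 window had a listed peak in all 8 libraries in 8 of 40 bins and none in 2 of 40. The Olig window had 2 of 70 (2.86%) and 24 of 70 (34.3%), and all autosomal bins 4.50% and 32.3%. Outside the Sox10 region, 7 bins of its window were shared by all libraries, with highest z from 5.04 to 49.1 per bin and library. With peaks of z at least 10, only 1 of the 40 Sox10 bins was shared by all 8 libraries (2.5%), and 1 of the 70 Olig bins (1.43%). Base composition and mappability were not analysed here, and their part in these peaks was not tested.

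The covered length did not differ between groups beyond the spread of libraries. In the Olig window it was 2275 ± 715 bp in control and 3375 ± 1190 bp in conditioned libraries (SD over n = 4 mice; two-sided exact permutation p = 0.171, adjusted by Benjamini-Hochberg to 0.4 over 4 window tests), a difference of 1100 bp with an SE of 694 bp. Conditioned replicate 2, which has the shortest peak list, was the low value of its group at 1700 bp, and without it the difference was 1658 bp with groups that did not overlap (exact permutation p = 0.0571). In the Sox10 window the means were 6175 ± 3504 and 6663 ± 1612 bp (SD over n = 4 mice; two-sided exact permutation p = 0.8, adjusted by Benjamini-Hochberg to 0.8). Without control replicate 4 that difference turned to -1004 bp.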

How the data were processed

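The 8 libraries were grouped by their titles. The submitters' processing notes name Bowtie2 and build mm9. How peaks were called and reads counted is not given in the sources used here. The authors deposited raw read counts per region, a table with the mean z score and the number of carriers of each region, and 1 list of peaks per sample with a z score, whose scaling is not stated. Lengths from start to end of a listed peak are multiples of 50 bp, with 0 for a single step, so 1 step was added to each peak before covered length was summed. Counts were fitted over all 11304 regions with edgeR 4.0.16 under R 4.3.3 (quasi-likelihood; the model held group alone; TMM; filterByExpr with minimum count 10, which removed 0 regions; threshold 0.05 after Benjamini-Hochberg adjustment). The SE is the log2 fold change over the square root of F. The fit was tested on simulated data. Alternatives used DESeq2 1.42.0 and limma 3.58.1. Window values were compared by two-sided exact permutation. Python 3.11.15 and pandas 2.3.3 handled the tables. Every region overlapping the windows is described, with the 3 regions most alike per window. The windows, members and tests were chosen with earlier results of these data known. The labels describe separate animals, so p-values measure the spread between animals together with library preparation. The labels name no molecular identifiers, so intervals cover counting error only.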

Additional observations from a re-analysis of the deposited data

Results flagged for a closer look

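The log2 ratio of the Olig2-side count over the Sox10 count was -0.13 in conditioned replicate 1, apart from the other conditioned libraries at -0.35 to -0.32. Its gap to the nearest of them was 0.843 of the range of the 4 values, above Dixon's critical value for 4 samples. Of 26 groups of 4 values examined this way, 1 passed, and chance passes about 1 in 20. The deviating library lay towards the controls.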

How the results depend on the processing

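The titles give both groups replicate numbers 1 to 4, and both groups also carry the label numbers 1, 4, 6 and 9 in that order. What the shared label numbers stand for is not stated, so a shared batch or pairing cannot be told from them. Across regions, same-numbered libraries deviated from their group means with correlations of 0.16, 0.05, -0.06 and 0.27. Libraries of different numbers gave -0.34 to 0.28. Centring only 4 libraries on their group mean constrains these correlations, so they cannot decide whether the samples are paired. The main model held group alone, and a fit with the numbers as a block is given beside it. With a replicate block, 0 regions passed and the log2 fold changes were -0.57 (Olig2 side), -0.21 (Olig1 side) and 0.37 (Sox10). Labels permuted within replicate number gave the same differences with exact p of 0.375 and 0.875 for covered length and 0.625 and 0.25 for the highest z (Olig, Sox10).

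Over 18 alternatives the log2 fold change of the Olig2-side region stayed below 0 (-1.42 to -0.26), that of the Olig1-side region was below 0 in 16 and that of the Sox10 region above 0 in 16; adjusted p ranged from 0.442 to 0.999. The count of 0 regions became 6 with region totals alone (1130 at an unadjusted p below 0.05) and 40 with DESeq2's Wald test (1152 unadjusted). Scaling by region totals alone moved the median log2 fold change of all regions to 0.75 and gave 0.72 on the Olig1 side, 0.73 at Sox10 and -0.26 on the Olig2 side. Without control replicates 1 and 3 the Olig1-side value was 0.012 and the Sox10 value -0.39. Leaving out 1 library gave 0 regions each time, -1.18 to -0.39 on the Olig2 side, -0.39 to -0.02 on the Olig1 side and -0.095 (without control replicate 1) to 0.50 at Sox10. Both alternative filters on low counts left the table whole and so gave identical values.

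Leaving out 1 library moved the covered-length difference between 758 and 1658 bp (Olig) and between -1004 and 1829 bp (Sox10; -8.0 bp without conditioned replicate 3), and that of the highest z between -2.47 and 25.1 (Olig) and between 16.3 and 46.5 (Sox10). As a share of the library's covered length, the Sox10 difference was -0.605 ppm. Over the library median, the z differences were -0.435 (Olig) and -0.117 (Sox10). Without control replicates 1 and 3, chosen after seeing the data, the differences in the highest z were -11.9 (Olig) and 2.85 (Sox10; exact permutation p = 0.933), and those in covered length 950.0 bp (Olig) and 2363 bp (Sox10; exact permutation p = 0.333). Also added after seeing the data were the ratios without 1 library: for Olig2 over Olig1, the log2 difference of -0.31 became -0.84 without control replicate 1, 0.02 without control replicate 2, 0.11 without control replicate 4 and -1.43 without control replicates 1 and 3, and for Olig1 over Sox10 the difference of -0.58 became 0.43 without control replicates 1 and 3. For Olig2 over Sox10 it ran from -1.10 to -0.71 without 1 library. Where values changed, the cause was not tested. Counts in the 3 regions were lowest in control replicates 1 and 3, at 66 to 361 reads, and the counting error is relatively widest there.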
